A study of Mus musculus with 6 samples.

Results

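The genes described are 9 members of the calcium/calmodulin kinase system, measured by RNA sequencing of polyadenylated RNA from whole mouse liver. They are the CaM kinase II (CaMKII) genes Camk2a, Camk2b, Camk2d and Camk2g, the CaM kinase I genes Camk1 and Camk1d, the upstream kinase gene Camkk2 and the calmodulin genes Calm2 and Calm3. All 9 were found by symbol among the 23224 genes of the deposited table, and 8 of them, all but Camk2a, were among the 13058 genes left by a filter on low counts. The family was chosen by the measured fall of Camk2b between the genotypes compared here, so the Camk2b difference is given as a description with no test. The question put to the other members is whether any of them was higher where Camk2b was missing.

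The 2 groups were PKM2 KO mice, a germline knockout of the M2 splice form of pyruvate kinase, an enzyme of glycolysis, and WT mice, with 3 livers from separate animals in each. All were 35 weeks old, untreated and on a mixed C57BL/6J x 129SvJ background, and the labels do not say whether the groups were littermates. Libraries held 27727048 to 36125711 expected counts, which are estimated numbers of reads. Levels below are CPM (counts per 1000000 expected counts of the library) after TMM scaling between libraries, and 3 counts correspond to 0.0812 to 0.107 CPM, a limit that covers counting error only. The targeted gene, a single row listed as Pkm2 that cannot separate the splice forms PKM1 and PKM2, measured 9.65, 6.31 and 6.9 CPM across PKM2 KO livers 1 to 3, against 15.9, 26.6 and 20.6 CPM across WT livers 1 to 3 (log2 fold change -1.47, edgeR adjusted p = 0.314). The 10 hepatocyte markers summed to 108653 to 118592 CPM in PKM2 KO against 74972 to 108529 CPM in WT. Alb alone made up 73826 to 82559 CPM of this in PKM2 KO and 45643 to 77596 CPM in WT. Each of the 10 markers overlapped between genotypes, and 3 of them had negative fold changes. Pancreatic acinar markers summed to 3113 CPM in WT 1 and 8935 CPM in WT 2, against 31.6 to 60.3 CPM in the other 4 livers. In whole tissue, fewer cells of a type and less RNA per cell cannot be told apart.

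Calmodulin is a small protein that binds calcium ions and then binds and activates other proteins. CaMKII is one of its main targets, a kinase assembled from many subunits that phosphorylate each other and so stay active after calcium has fallen. In hepatocytes, hormones such as glucagon raise calcium, and CaMKII is known there as a kinase that promotes glucose output. The alpha and beta subunits are best known from neurons, whereas the delta and gamma subunits are made in most tissues. CaM kinase I and the AMP-activated kinase are activated by upstream CaM kinase kinases, of which Camkk2 encodes one.

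The coding stretch around the threonine that CaMKII subunits phosphorylate in each other, with the calmodulin-binding segment after it, is shown because reads from the members are told apart by such differences. It was read from the GENCODE M21 transcripts, 5′ to 3′, and capitals mark the 37 of 102 bases that are not the same in all 3 genes. The threonine is the sixth codon of each line.
Camk2b: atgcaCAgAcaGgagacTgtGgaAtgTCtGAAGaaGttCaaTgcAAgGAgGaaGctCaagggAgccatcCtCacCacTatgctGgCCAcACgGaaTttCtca
Camk2d: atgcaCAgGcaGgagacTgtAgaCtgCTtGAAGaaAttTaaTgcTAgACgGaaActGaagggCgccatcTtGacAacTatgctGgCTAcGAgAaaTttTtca
Camk2g: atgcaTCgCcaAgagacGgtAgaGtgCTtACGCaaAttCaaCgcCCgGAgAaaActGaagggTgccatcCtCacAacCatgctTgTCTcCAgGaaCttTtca
Camk2b shared 79.4% of these bases with Camk2d and 70.6% with Camk2g, and the encoded residues differed at 1 and 3 places. The threonine is codon 287 in the transcripts Camk2b-202 and Camk2d-221 and codon 285 in Camk2g-217. Over whole transcripts, 0 of the 9443 stretches of 50 bases in the Camk2b transcripts occurred in another CaM kinase member.

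The coding sequences of Calm2 and Calm3 differ while the protein they encode does not. A stretch that opens with the first calcium-binding loop is shown for this reason, with capitals at the 15 of 90 bases that differ between the 2 genes.
Calm2: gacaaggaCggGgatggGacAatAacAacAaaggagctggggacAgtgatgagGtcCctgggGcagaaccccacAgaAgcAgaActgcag
Calm3: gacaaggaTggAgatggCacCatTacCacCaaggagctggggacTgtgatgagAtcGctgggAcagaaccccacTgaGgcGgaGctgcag
Both stretches encode the same residues. The whole coding sequences of Calm2 and Calm3, 450 bases each, shared 82.7% of their bases, with 0 residues different, and their transcripts shared no stretch of 50 bases.

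Camk2b, the beta subunit of CaMKII, was nearly absent from PKM2 KO liver. It measured 0.103, 0.28 and 0.213 CPM across PKM2 KO livers 1 to 3, against 22.1, 17 and 14.4 CPM across WT livers 1 to 3. The PKM2 KO values came from 3, 9 and 7 reads and the WT values from 531 to 618 expected counts. Every PKM2 KO liver lay far below every WT liver, and the WT livers differed among themselves by less than their distance to any PKM2 KO liver. The group levels were 0.1986 ± 0.089 CPM in PKM2 KO against 17.82 ± 3.92 CPM in WT (SD, n = 3 each), a WT level 89.7 times the PKM2 KO level, with a fitted log2 fold change of -6.44 (PKM2 KO over WT, SE 0.315). In WT its mean level was above that of 57.7% of the tested genes, and in PKM2 KO above that of 0.184%.

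Camk2d, the delta subunit, measured 5.72, 5.5 and 5.41 CPM across PKM2 KO livers 1 to 3, against 5.82, 6.26 and 7.95 CPM across WT livers 1 to 3. All 3 PKM2 KO livers were below all 3 WT livers, the closest pair being PKM2 KO 1 and WT 1, and WT 3 stood above the rest. With library totals as the only scaling the groups overlapped, with PKM2 KO up to 5.99 CPM and WT from 5.56 CPM. The log2 fold change of Camk2d was -0.27 (SE 0.16, approximate 95% interval -0.64 to 0.10), and it did not pass in edgeR's quasi-likelihood test (adjusted p over all genes = 0.769). Without WT replicate 3 its log2 fold change was -0.12.

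Camk2g, the gamma subunit, measured 11.6, 12.8 and 8.99 CPM across PKM2 KO livers 1 to 3, against 10.4, 9.52 and 8.5 CPM across WT livers 1 to 3. Camk2g was highest in PKM2 KO 1 and 2, while PKM2 KO 3 lay within the WT range. Its log2 fold change was 0.23 (SE 0.162, interval -0.14 to 0.61) and its adjusted p in the same edgeR test was 0.806. Without PKM2 KO replicate 3 the value was 0.37, and without PKM2 KO replicate 2 it was 0.12.

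Camk2a, the alpha subunit, was at the edge of detection in both genotypes. Its expected counts were 3, 2 and 1 across PKM2 KO livers 1 to 3, against 0, 3 and 6.1 across WT livers 1 to 3. The 0 in WT 1 allows a level of up to 0.107 CPM. It was not tested, and no fold change is given.

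**Figure D1:**
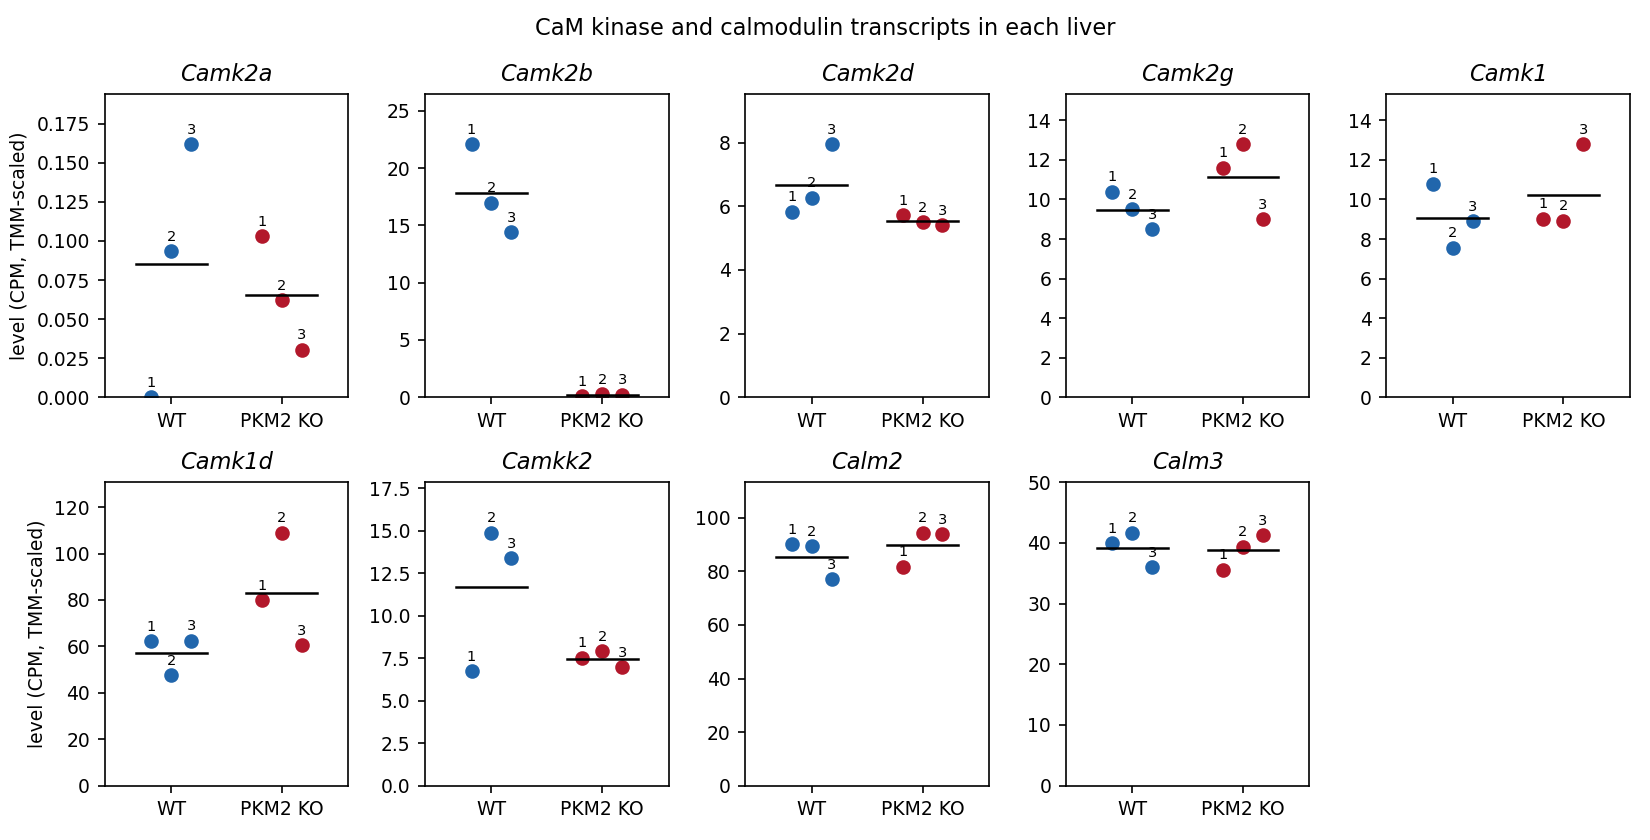
Level of each gene in each liver, in CPM with TMM scaling (linear axes from 0, a scale for each panel); points are livers with their replicate number and lines are group means. Camk2b stands at 14.4 to 22.1 CPM in WT and at 0.103 to 0.28 CPM in PKM2 KO, while the WT and PKM2 KO livers of the other panels lie close together or overlap.

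Taking the 4 CaMKII genes as a sum shows how much of the family Camk2b made up. The sum was 17.5, 18.6 and 14.6 CPM across PKM2 KO livers 1 to 3, against 38.3, 32.9 and 31 CPM across WT livers 1 to 3. The groups did not overlap, and the PKM2 KO mean of 16.94 ± 2.06 CPM was 49.8% of the WT mean of 34.05 ± 3.8 CPM (SD, n = 3 each). This sum holds Camk2b, on which the family was chosen, so its lower level in PKM2 KO is no separate result. Camk2b alone supplied 57.6%, 51.7% and 46.4% of CaMKII counts in WT livers 1 to 3 and 0.589% to 1.5% in PKM2 KO livers.

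The CaMKII genes other than Camk2b summed to almost the same level in both genotypes. They gave 17.4, 18.4 and 14.4 CPM across PKM2 KO livers 1 to 3, against 16.2, 15.9 and 16.6 CPM across WT livers 1 to 3. The WT values all lay inside the PKM2 KO range. The means, 16.74 ± 2.05 and 16.24 ± 0.37 CPM, differed by 0.507 CPM, which is smaller than the spread among PKM2 KO livers, whereas the mean of Camk2b was 17.6 CPM lower in PKM2 KO. Camk2g was 1.66 CPM higher in PKM2 KO on average and Camk2d 1.14 CPM lower. In CPM, which is not divided by transcript length, the other subunits did not make up for the missing Camk2b in these livers. Camk2g, at a level that did not differ past the test, supplied 61.4% to 68.7% of the smaller PKM2 KO sum and 27.1% to 29% of the WT sum.

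**Figure D2:**
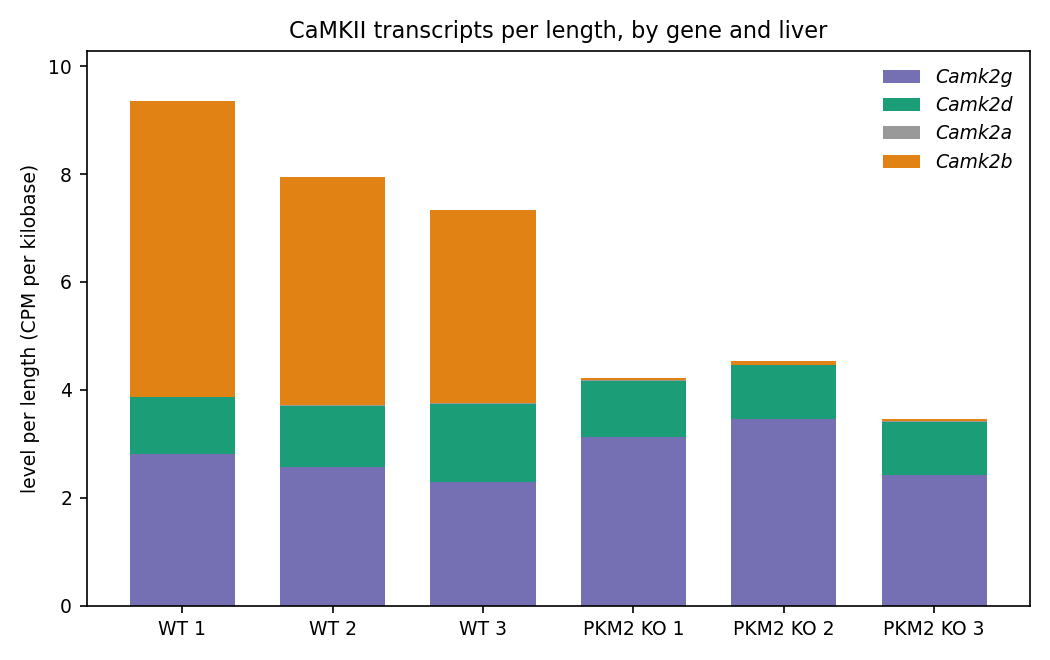
Stacked level per length of the 4 CaMKII genes in each liver, in CPM per kilobase of the longest coding transcript (linear axis from 0). The Camk2b segment fills 48.7% to 58.7% of the WT bars and at most 1.53% of the PKM2 KO bars, while the Camk2g and Camk2d segments together are of similar height in both genotypes.

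Levels can be set between genes only per length, here in CPM per kilobase of the longest GENCODE M21 coding transcript, which may not be the transcript made in liver. On that scale the CaMKII sum was 4.073 ± 0.548 in PKM2 KO and 8.213 ± 1.03 in WT. Camk2b, at 3.57 to 5.49 CPM per kilobase, was the most abundant CaMKII gene in every WT liver, above Camk2g at 2.29 to 2.81 and Camk2d at 1.05 to 1.44. In PKM2 KO, Camk2g led with 2.43 to 3.46, followed by Camk2d at 0.979 to 1.04 and Camk2b at 0.0257 to 0.0695. With the mean length of all coding transcripts, Camk2b still made up 44.8% to 54.4% of the CaMKII level in WT.

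Over the whole family in WT, Calm2 was highest at 70.99 ± 6.16 CPM per kilobase (SD, n = 3), followed by Calm3 at 17.12 ± 1.27, with no overlap between them. Camk1d came next at 8.235 ± 1.22, overlapping Camk1 at 6.073 ± 1.08, and Camk1 overlapped Camk2b at 4.428 ± 0.975. The values of Camk2g and Camkk2 overlapped, at 2.558 ± 0.257 and 2.404 ± 0.894, and so did those of Camkk2 and Camk2d. With mean transcript lengths Camkk2 stood at 5.445 and Camk2g at 5.296, the reverse order. In PKM2 KO the same order held on the longest-transcript scale except that Camk2b had dropped to just above Camk2a.

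Of the CaM kinase I genes, Camk1d was on average higher in PKM2 KO, without passing the test. It measured 79.8, 109 and 60.6 CPM across PKM2 KO livers 1 to 3, against 62.1, 47.5 and 62.4 CPM across WT livers 1 to 3. PKM2 KO 2 stood well above all others, and PKM2 KO 3 lay below WT 1 and WT 3. The log2 fold change was 0.54 (SE 0.223, interval 0.01 to 1.06), with an adjusted p of 0.679 in edgeR's test, and it was 0.29 without PKM2 KO replicate 2. Camk1 measured 9.03, 8.92 and 12.8 CPM across PKM2 KO livers 1 to 3, against 10.8, 7.56 and 8.9 CPM across WT livers 1 to 3. Its groups overlapped throughout (log2 fold change 0.18, interval -0.29 to 0.64, edgeR adjusted p = 0.905), and the sign turned without PKM2 KO replicate 3 (-0.02).

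Camkk2, the kinase upstream of CaM kinase I and of the AMP-activated kinase, measured 7.54, 7.92 and 6.96 CPM across PKM2 KO livers 1 to 3, against 6.75, 14.9 and 13.4 CPM across WT livers 1 to 3. WT 2 and WT 3 were high and WT 1 was the lowest of all 6 livers. The log2 fold change was -0.65 (SE 0.275, interval -1.29 to 0.00) with an edgeR adjusted p of 0.687; without WT replicate 1 it was -0.91 (adjusted p = 0.0548) and without WT replicate 2 it was -0.43. The 7 T and B cell markers summed to 4.65, 6.54 and 6.33 CPM across WT livers 1 to 3 and to 4.41 to 5.1 CPM in PKM2 KO. Within that list Cd4 was lowest in WT 1 (0.607 CPM, against 2.49 and 1.57 CPM), whereas Cd3e, Cd3g and Cd8a were each highest there among WT livers. The 8 Kupffer cell markers summed to 338, 315 and 310 CPM across WT livers 1 to 3, highest where Camkk2 was lowest, and to 254 to 290 CPM in PKM2 KO. The part of these cells in the Camkk2 difference was not tested.

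Neither Calm2 nor Calm3 passed the test. Calm2 measured 81.8, 94.5 and 93.8 CPM across PKM2 KO livers 1 to 3, against 90.2, 89.5 and 77 CPM across WT livers 1 to 3, and its groups overlapped (log2 fold change 0.07, interval -0.20 to 0.35, edgeR adjusted p = 0.937). Calm3 measured 35.6, 39.4 and 41.3 CPM in PKM2 KO against 40, 41.7 and 36 CPM in WT (log2 fold change -0.02, interval -0.27 to 0.24, edgeR adjusted p = 0.983). The sign of Calm3 depended on the scaling and was 0.01 with library totals only. Calm2 was lowest in WT 3 and Calm3 in PKM2 KO 1. Together they gave 128.8 ± 9.89 CPM in PKM2 KO against 124.8 ± 10.2 CPM in WT (SD, n = 3 each). The intervals of Calm2 and Calm3 end at a log2 fold change of -0.27 on the low side and 0.35 on the high side.

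**Figure D3:**
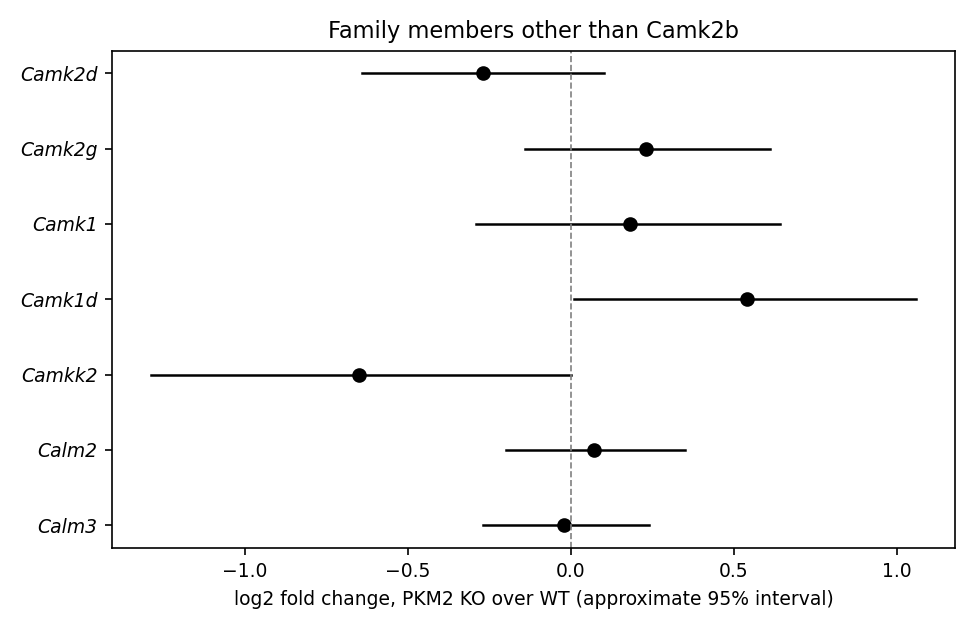
Log2 fold change, PKM2 KO over WT, of each tested member other than Camk2b, with approximate 95% intervals from edgeR's quasi-likelihood fit over 6 livers. The intervals of Camk1d and Camkk2 end at 0.01 and 0.00, and the others span 0.

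Leaving out Camk2b, on which the family was chosen, 0 of the 7 other tested members were called in edgeR, in DESeq2 or in limma voom. Over all genes tested in edgeR, 0.0153% were called higher and 0.00766% lower at an adjusted p under 0.05. Of the 7, Camk1d and Camkk2 reached an unadjusted p under 0.05, as 7.24% of all tested genes did. Of the 7, Camk2d had groups that did not overlap, lower in PKM2 KO, a state lost with library totals as the only scaling. Over all tested genes 6.27% were lower and 5.8% higher without overlap. None of these 7 was called under any of the 17 alternatives tried.

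The pathway around the kinases was described from 7 lists of other genes, 122 in all, of which 104 were tested. None of the 104 was called in either direction in edgeR, where 4 reached an unadjusted p under 0.05, and DESeq2 called 1 of them. The median log2 fold change over the 104 was -0.02, and over all tested genes it was -0.01. The groups did not overlap for 6 of them higher and 5 lower in PKM2 KO. Among all 13058 tested genes, 5.8% were higher and 6.27% lower without overlap, and 7.24% reached an unadjusted p under 0.05. DESeq2 called 99 genes in all.

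Other kinases regulated by calmodulin had positive fold changes in 11 of 14 tested genes, with a median of 0.10 on the log2 scale. Among all tested genes, 6217 of 13058 were positive, the count to set beside this list and those below. Only 1 of the 14 reached an unadjusted p under 0.05 in edgeR, and 0 were called. Phka2, a regulatory subunit of the phosphorylase kinase that starts glycogen breakdown, measured 24.5, 25.5 and 24.5 CPM in PKM2 KO against 23.9, 17.6 and 18.2 CPM in WT (edgeR adjusted p = 0.687). All PKM2 KO livers were above all WT livers, WT 1 narrowly so. Mylk, the myosin light chain kinase of smooth muscle, was at 81.32 ± 11.9 and 67 ± 2.25 CPM (edgeR adjusted p = 0.718). It measured 92.4, 82.7 and 68.8 CPM across PKM2 KO livers 1 to 3, against 65.2 to 69.5 CPM in WT. Smooth muscle markers summed to 53.5, 14.2 and 12.8 CPM across PKM2 KO livers 1 to 3, against 20.4 to 27.2 CPM in WT. The part of smooth muscle in the Mylk levels was not tested. The neuronal and lymphoid kinase Camk4 was at 0.124 to 0.406 CPM, and Camk1g and the pseudokinase gene Camkv were each at 0 in 4 of the 6 livers and at no more than 0.0541 CPM.

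Of the 8 tested CaMKII inhibitors and phosphatases, 6 had negative fold changes, with a median of -0.05. Camk2n1, which encodes an inhibitor protein of CaMKII, measured 62.2, 63.5 and 64.9 CPM across PKM2 KO livers 1 to 3, against 73.5, 68.1 and 80.1 CPM across WT livers 1 to 3. The PKM2 KO livers were all lower (log2 fold change -0.22, SE 0.104, edgeR adjusted p = 0.729). The ratio of Camk2n1 to the CaMKII sum was 3.55, 3.41 and 4.43 in PKM2 KO and 1.92, 2.07 and 2.58 in WT, a ratio of CPM with no correction for length. That sum holds Camk2b, on which the family was chosen, so the fall of Camk2b by itself raises the ratio in PKM2 KO. Without Camk2b the CaMKII sum was 14.4 to 18.4 CPM in PKM2 KO and 15.9 to 16.6 CPM in WT. The higher ratio is therefore no separate result about Camk2n1. Ppp1cb, a catalytic subunit of protein phosphatase 1, was at 95.61 ± 2.59 CPM in PKM2 KO against 106.8 ± 4.27 CPM in WT (adjusted p = 0.782).

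Among other calmodulins and calmodulin-binding proteins, 6 of 14 tested genes were positive and the median was -0.08. Nrgn, neurogranin, which holds calmodulin without calcium in neurons, was at 0.379 to 0.435 CPM in PKM2 KO against 0.529 to 0.607 CPM in WT (edgeR adjusted p = 0.757). Calml4, a calmodulin-like gene, was at 1.403 ± 0.315 and 0.7339 ± 0.644 CPM (adjusted p = 0.802). The epidermal calmodulin-like genes Calm4 and Calml3 were at 2.45 and 1.79 CPM in PKM2 KO 1 and at 0.622 and 0.498 CPM in WT 2, with 0 to 0.0271 CPM in the other 4 livers.

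The calcineurin list, the calcium-dependent phosphatase and its NFAT factors, was even (7 of 13 positive, median 0.01). Rcan2, a regulator of calcineurin, measured 12.3, 9.63 and 10.4 CPM across PKM2 KO livers 1 to 3, against 5.65, 7.28 and 5.95 CPM across WT livers 1 to 3. All PKM2 KO livers were above all WT livers (log2 fold change 0.78, SE 0.157), yet the edgeR adjusted p was 0.487, and Rcan2 was the list gene called by DESeq2 (adjusted p = 0.0191). Ppp3ca, a catalytic subunit of calcineurin, was at 22.78 ± 0.305 and 20.36 ± 1.61 CPM (edgeR adjusted p = 0.782).

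Genes that release, admit or pump calcium had 10 of 24 positive fold changes and a median of -0.08. Ccdc109a, the older name of the mitochondrial calcium uniporter gene Mcu, was at 13.59 ± 1.85 CPM in PKM2 KO against 10.44 ± 1.35 CPM in WT (edgeR adjusted p = 0.666). Stim2, a sensor of calcium in the endoplasmic reticulum, was at 20.63 ± 1.04 and 15.95 ± 3.06 CPM (adjusted p = 0.676), with every PKM2 KO liver above every WT liver. Both reached an unadjusted p under 0.05.

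The AMP-activated kinase and its relatives had 6 of 14 positive and a median of -0.03. Prkaa2, a catalytic subunit that acts downstream of Camkk2, measured 77.2, 83 and 83 CPM in PKM2 KO against 65.1, 71.7 and 75.6 CPM in WT, without overlap (edgeR adjusted p = 0.757). Sik3, a salt-inducible kinase, was at 41.64 ± 7.75 and 47.86 ± 6.98 CPM (adjusted p = 0.848). Among genes of the glucagon response and CaMKII outputs, 8 of 17 were positive and the median was -0.10. Pck1, the enzyme that commits carbon to glucose synthesis, was at 1710 ± 377 CPM in PKM2 KO against 2165 ± 320 CPM in WT (adjusted p = 0.79), and Foxo1, a transcription factor of glucose output that CaMKII is known to act on, at 35 ± 2.28 and 40.32 ± 7.31 CPM (adjusted p = 0.815). Neither separated the genotypes.

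**Figure D4:**
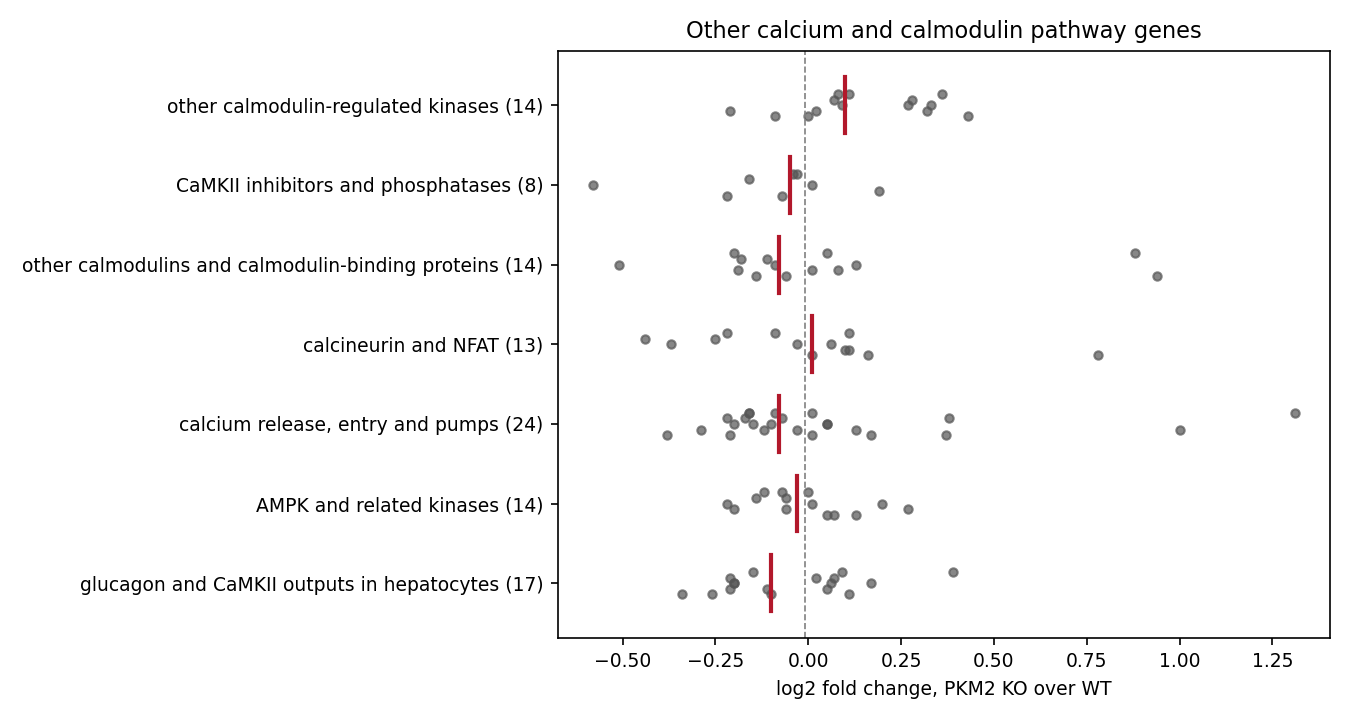
Log2 fold change, PKM2 KO over WT, of each tested gene in 7 pathway lists (points, with the number tested in brackets), the median of each list (red bar) and the median of all tested genes (dashed line, -0.01). List medians lie between -0.10 and 0.10, and no gene shown was called in edgeR, while DESeq2 called Rcan2.

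Cells that make much Camk2b elsewhere, such as neurons, muscle and pancreatic islet cells, were looked for by their markers. Of the neuron markers, Snap25 and Nefl were at 0 in 5 livers and at 0.0344 CPM in PKM2 KO 1. Other markers of that list were detected in every liver at low levels: Rbfox3 at 0.373 to 0.785 CPM, Mtap2 at 0.405 to 0.808 CPM and Syn1 at 0.124 to 0.379 CPM. The 10 neuron markers summed to 18.7 to 24.2 CPM in PKM2 KO against 11.7 to 14.3 CPM in WT. Syt1 alone made up 16.8 to 22.7 CPM of this in PKM2 KO and 9.31 to 12.7 CPM in WT. Skeletal muscle markers summed to 47.2, 9.01 and 1.43 CPM across PKM2 KO livers 1 to 3, against 1.54, 24.7 and 8.17 CPM across WT livers 1 to 3. Their groups overlapped, with PKM2 KO 1 and WT 2 the highest. Islet markers summed to 0.607, 13.3 and 0 CPM across WT livers 1 to 3. WT 3, with no islet marker detected and acinar markers at 31.6 CPM, the lowest of all livers, had 14.4 CPM of Camk2b. The part of these cells in the Camk2b difference was not tested. All 6 livers expressed the Y-linked gene Ddx3y, at 55.1 to 77.2 CPM, and Xist was at most 0.152 CPM.

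Camk2b lies on mouse chromosome 11. Its RefSeq promoter window, 300 bases around the start in build GRCm38.p6 at chr11:6065699-6065998 on the minus strand, is printed because this gene holds the main difference of the family. Capitals mark matches to GGGCGG, the GC box, on either strand.
Camk2b promoter: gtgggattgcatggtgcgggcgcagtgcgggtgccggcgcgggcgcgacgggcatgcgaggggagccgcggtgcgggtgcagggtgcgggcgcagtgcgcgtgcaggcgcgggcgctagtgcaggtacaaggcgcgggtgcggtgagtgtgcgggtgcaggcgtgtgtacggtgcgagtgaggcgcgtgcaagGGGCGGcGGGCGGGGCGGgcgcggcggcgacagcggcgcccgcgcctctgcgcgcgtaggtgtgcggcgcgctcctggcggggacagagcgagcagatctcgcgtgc
The window was 77.3% G or C, against a median of 52.7% over 32851 promoters of the same length. It held 3 matches to GGGCGG, the last 2 sharing 1 base, a motif found in 35.7% of those promoters. It held no TATAAA (found in 13.6% of promoters), no CCAAT (37.4%), no CACGTG (7.15%) and no TGACGTCA (1.79%) on either strand. The annotated gene reaches further upstream than this window, so the window describes 1 start, in the reference strain only.

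The genes beside Camk2b did not share its fall. Of the 20 genes described around it in RefSeq order, 10 on each side among those tested, none was called in edgeR, although 5 reached an unadjusted p under 0.05, and DESeq2 and limma voom each called 0 of them. Their median log2 fold change was -0.01, with a range of -0.72 to 0.46, and 3 were higher and 2 lower without overlap. Over all tested genes, 7.24% reached an unadjusted p under 0.05, and 5.8% were higher and 6.27% lower without overlap. The nearest on one side, Ykt6, a membrane fusion protein, measured 57.4, 56.8 and 65.3 CPM in PKM2 KO against 60.5, 71.7 and 52 CPM in WT.

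On the other side of Camk2b, Nudcd3, a cochaperone, measured 36.4, 36 and 38.7 CPM in PKM2 KO against 31.4, 26.3 and 23 CPM in WT. All PKM2 KO livers were higher (log2 fold change 0.46, SE 0.131, edgeR adjusted p = 0.566). The gene Gm11968, next in order, was at 6.671 ± 0.939 and 8.234 ± 0.668 CPM. Polm (0.39) and Tmed4 (0.31) were also higher, and Ogdh (-0.35) and Myo1g (-0.72) lower, without overlap between genotypes. Just outside these 20, the 11th tested gene on the Nudcd3 side, Gm11974, was chosen after its values were seen. It measured 4.03, 4.04 and 4.65 CPM in PKM2 KO against 1.18, 0.84 and 0.676 CPM in WT, a log2 fold change of 2.25 (SE 0.248, edgeR adjusted p = 0.0638).

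**Figure D5:**
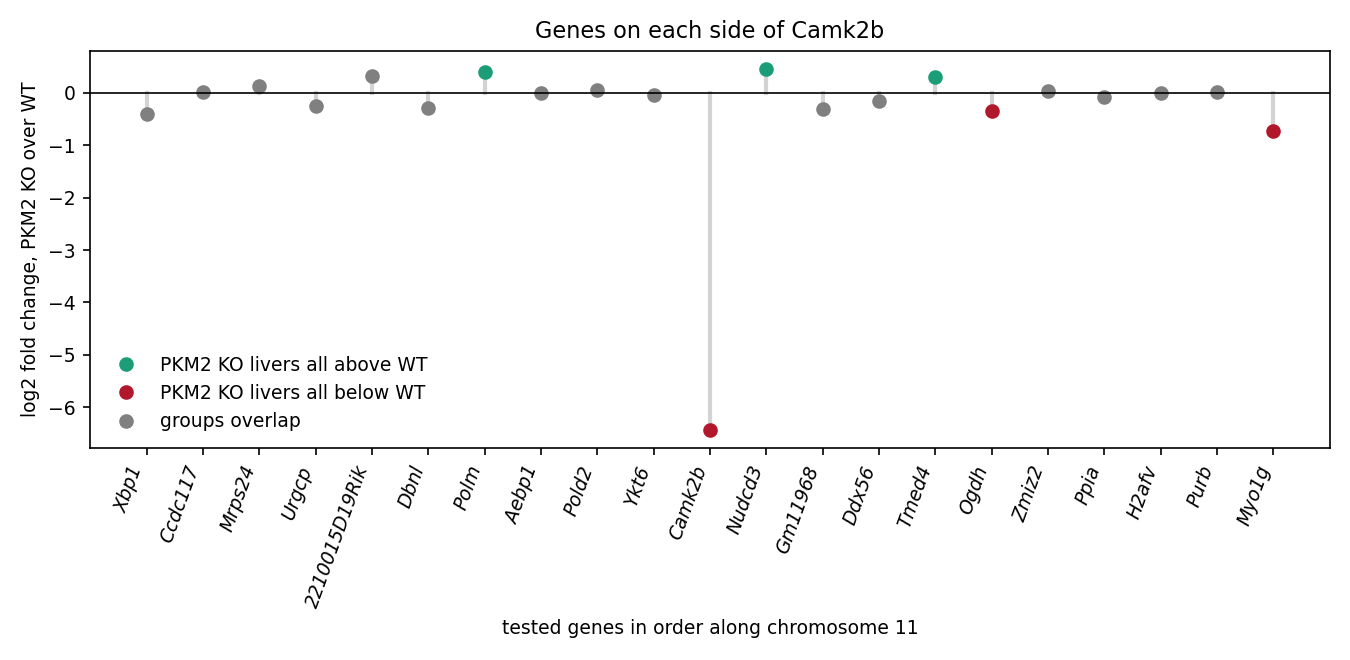
Log2 fold change, PKM2 KO over WT, of Camk2b and of 10 tested genes on each side of it, in RefSeq order along chromosome 11; colours show whether the 3 PKM2 KO livers lie all above, all below or among the 3 WT livers. Camk2b is at -6.44 and its 20 neighbours are between -0.72 and 0.46.

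The genes most like Camk2b over the 6 livers were taken by Pearson correlation of log2 CPM, a description over 6 points that fall into 2 genotypes. The 5 highest were Tmem138 (0.9917), Gm14434 (0.9917), Rabl2 (0.9848), Calhm2 (0.9841) and Slc2a3 (0.9841), and the 5 lowest were Gm6682 (-0.9979), Mettl7a3 (-0.9929), Gtpbp10 (-0.9892), Pou6f1 (-0.9869) and Lrrk1 (-0.9853). Of these, Gm14434 was listed at 0 in all PKM2 KO livers and reached 3.14, 4.2 and 2.35 CPM across WT livers 1 to 3. The reverse held for Gm6682, at 1.89, 1.24 and 1.46 CPM in PKM2 KO against 0 in WT, and for Mettl7a3, at 15.6, 16.6 and 14 CPM in PKM2 KO against 0 in WT, where WT 2 held an expected count of 0.3. Slc2a3, a glucose transporter, was at 0.207 to 0.311 CPM in PKM2 KO against 0.654 to 0.822 CPM in WT. None of the 10 lies on chromosome 11. For Camk2d the most alike were Chd7 (0.9898), Epas1 (0.9887) and Zfp78 (0.9872), and for Camk2g they were Csrnp1 (0.993), Amt (0.9911) and Mylk3 (0.987).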

How the data were processed

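The authors deposited 1 table of expected counts, the per-gene read estimates of RSEM, for 6 livers. Bowtie 1.0.1, RSEM 1.2.12 and the mouse build mm9 are named in the submitters' processing notes; the annotation and strandedness are not given in the sources used here. Expected counts were rounded and analysed in R 4.3.3 with edgeR 4.0.16: filterByExpr, TMM scaling, and the quasi-likelihood F test over all 13058 genes kept, with genotype as the only term and Benjamini-Hochberg adjustment at 0.05. The SE is the absolute log2 fold change over the square root of F, and intervals use it with the fit's degrees of freedom. Sums are of CPM and have no test. Log2 CPM used a prior count of 2. Lengths and coding sequences came from GENCODE M21 and promoters and gene order from RefSeq (GRCm38.p6), a build other than mm9; 99.2% of tested genes were placed, and 6 of the 9 members have a promoter in the RefSeq table. Reads of calmodulin pseudogenes were not looked at separately. P-values set the genotype difference against the spread between animals, 3 per group, which edgeR estimates with information shared across genes. The most similar library pair differed by a chi-square of 38.67 per gene, and all 6 libraries were kept as separate samples.

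The members and gene lists were chosen with earlier results of these data known. Named genes are all members, the 2 list genes with the smallest p per list, the nearest neighbours of Camk2b with those that did not overlap, and the most correlated genes; other names were chosen after their values were seen. Alternatives were RLE, upper quartile and no scaling, no or a stricter filter (1 CPM in 3 livers), DESeq2 1.42.0, voom of limma 3.58.1, unrounded values, a replicate block and each liver left out. Some genes are not reported here and were left out of the lists and of the gene order. The pipeline was tested on simulated data. Plots used Python 3.11.15 and matplotlib 3.10.9.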

Additional observations from a re-analysis of the deposited data

How the results depend on the processing

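The log2 fold change of Camk2b, on which the family was chosen, was between -6.76 and -6.13 over 17 alternatives. The CaMKII sum, which holds Camk2b, was between -1.08 and -0.87 (log2) over 11. All alternatives reused these livers or some of them. The number of genes called in all moved more: 3 in the reported fit, 5 without a filter, 99 with DESeq2, 5 with limma voom, 163 with WT 1 and WT 2 both left out (chosen after seeing the data), and 3 to 51 with 1 liver left out (51 without WT replicate 1 and 51 without WT replicate 3). Of the pathway list genes, 1 was called with DESeq2 (Rcan2) and 1 with WT 1 and WT 2 both left out (Pcp4l1), a fit where the lone WT liver is assumed to vary like the other group. Calm3, near 0 throughout, changed sign with library totals only (0.01), with WT 1 and WT 2 both left out (0.11) and with PKM2 KO 1 and WT 2 left out, also chosen after seeing the data (0.08), and ran from -0.07 to 0.05 with 1 liver left out. Over the same livers left out, Camk1 ran from -0.02 to 0.32. The sum of Calm2 and Calm3 was at 0.05 (log2) and moved to 0.19 with WT 1 and WT 2 both left out. The cause of these changes was not tested. With the replicate number as a block 7 genes were called; same-numbered livers did not deviate together (correlations -0.0509, 0.0266 and -0.0915), so the numbers were not taken as pairs. With 3 livers a group, differences of the size seen for Camk2d and Camk2g could not be told from the spread between animals. Camk1d and Camkk2 reached an unadjusted p under 0.05 in edgeR's test. Neither passed after adjustment over all tested genes (adjusted p = 0.679 and 0.687). Camk2a was too low to compare.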

Other observations

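Transcripts of epidermis accompanied Calm4 and Calml3. A list of 8 epidermal genes, chosen after the data were seen, summed to 23.1 CPM for PKM2 KO 1, 8.5 CPM for WT 2 and 1.37 to 2.03 CPM in the other 4 livers. In it Krtdap, a gene of differentiating keratinocytes, was at 6.68 and 1.59 CPM in these livers and at 0 in the other 4, and the basal keratin gene Krt5 was at 2.1 and 2.09 CPM and at 0 elsewhere. The same livers had the highest skeletal muscle sums, with the actin gene Acta1 at 16.5 and 11.5 CPM. Atp2a1, the calcium pump of skeletal muscle, reached 5.17 CPM in the first of these livers and 2.05 CPM in the second, against at most 1.31 CPM in the other livers.

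Syt1, a calcium sensor of vesicle release and the one abundant gene of the neuron list, measured 16.8, 22.7 and 17.2 CPM across PKM2 KO livers 1 to 3, against 12.7, 10.3 and 9.31 CPM across WT livers 1 to 3, with no overlap. Its edgeR adjusted p was 0.503, and 5.8% of all tested genes were likewise higher in PKM2 KO without overlap. The level of Gm11974, near Camk2b, was 4.72 times as high in PKM2 KO as in WT; this gene was chosen after its values were seen.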
